A study of Rattus norvegicus with 10 samples.

Results

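The genes of collagens, laminins and other matrix proteins were examined in RNA-seq of the arcuate nucleus (ARC) of Wistar rat dams. Members were chosen by their gene symbols alone, which had to name a collagen chain, a laminin chain, a nidogen, fibulin or fibrillin, a lectican, the tenascin *Tnc* or *Tnr*, 1 of the small proteoglycans *Dcn*, *Lum* and *Bgn*, or *Fn1*, *Sparc*, *Sparcl1*, *Hspg2* or *Gldn*. A single collagen gene that the symbols match was set aside by the rule. This gave 45 genes of the 12828 in the authors' table, and all 45 are protein-coding. Of the 76 RefSeq symbols that the rule matches, 31 were not analysed here, among them *Col1a2*, *Col4a3*, *Col6a3*, *Acan* and *Hspg2*.

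RNA-seq was carried out on 10 dams of a larger diet study, each with a library of its own. During pregnancy 5 of these dams ate the 5X-FA diet and 5 ate the 5X-MTHF diet, which hold folic acid or the reduced folate [6S]-5-methyltetrahydrofolic acid at 5 times the recommended quantity. The ARC, a nutrient-sensing nucleus of the hypothalamus beside the third ventricle, was excised free hand from frozen coronal slices of brains taken at parturition, and poly-A RNA was sequenced. The dams were pregnant for the first time, and the groups of the study that ate folate at the recommended quantity are not among these libraries.

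The extracellular matrix of the brain falls into a few compartments. Basement membranes, sheets of type IV collagen and laminin joined by nidogens, surround blood vessels and line the pial surface. Fibrillar collagens with their small proteoglycans belong mostly to the meninges and the walls of larger vessels. Between the cells lies a softer matrix of hyaluronan, to which lecticans bind with the help of link proteins, and tenascin-R ties the lecticans together. Around some neurons, in the ARC among other regions, this matrix condenses into perineuronal nets.

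The only level used here is the authors' average log2 CPM of each gene, where CPM is reads per 1000000 reads of a library. Its header names no sample, and it was read as an average over the dams of both diets. The diets were therefore not compared for any matrix gene and no test was run. The level comes with no spread between dams and no read total of any library. For the latter, the methods of the study give only an approximate depth common to all. As the value is not divided by transcript length, it orders genes by their reads and not by their transcripts. In a block of tissue, fewer cells of a type and less RNA per cell cannot be told apart.

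The methods of the study name a minimal filter on reads, so places given here are among the rows kept. Most of the 45 matrix genes analysed lay near the middle of the table. Their median was an average log2 CPM of 5.12, against 4.94 for all rows, and 25 of the 45 lay above the median of all rows. Levels ran from 2.14 for *Gldn* to 11.42 for *Sparcl1*, with quartiles of 4.28 and 5.74, where those of all rows were 3.65 and 6.18. A total of 29 genes (64.4%) lay at an average log2 CPM from 4 up to 6, where 40.3% of all rows lie. This band was not among the planned measures. The upper 10% of the rows held 3 matrix genes, *Sparcl1*, *Sparc* and *Bcan*, and the lower 10% held *Gldn* alone. The 22 collagens had a median of 4.88, with 11 above the median of all rows. The 23 other matrix genes had a median of 5.43, with 14 above it.

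**Figure D1:**
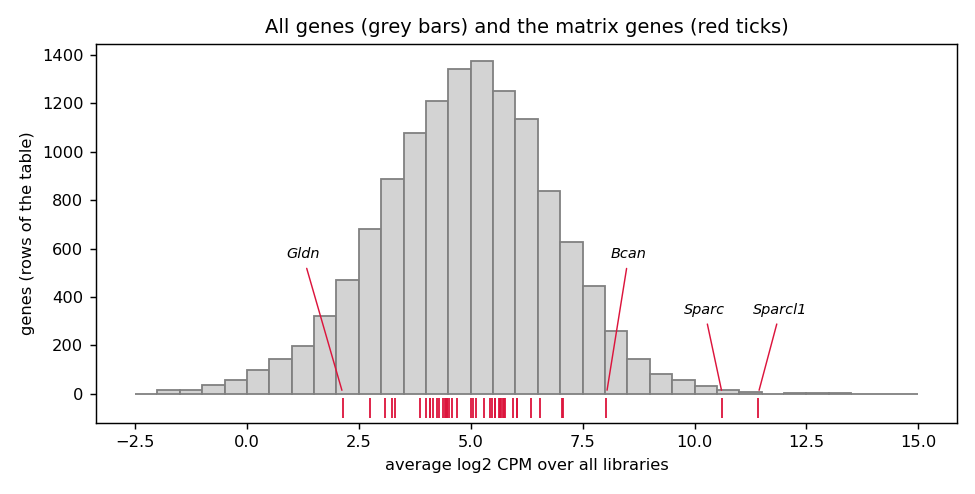
Grey bars count the genes of the table in steps of average log2 CPM over all libraries, and each red tick below them is a matrix gene. *Sparcl1* at 11.42 and *Sparc* at 10.62 stand apart from the other ticks, of which the next is *Bcan* at 8.03.

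Taken back from the log2 scale, the matrix genes summed to 6230 CPM, which is 0.622% of the summed CPM of the table from 0.351% of its rows. Most of this came from *Sparc* and *Sparcl1*, with 4317 CPM or 69.3% of the matrix total. The other 43 genes summed to 1913 CPM. Collagens gave 819 CPM, or 13.1% of the matrix total, and the lecticans and tenascins gave 570 CPM. Over the 45 genes analysed, most reads thus came from *Sparc* and *Sparcl1* and not from the 22 collagens.

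*Sparcl1*, which encodes hevin, a protein secreted by astrocytes that promotes synapse formation, ranked at place 15 of all rows with 2744 CPM. The gene lies on chromosome 14 of Rnor_6.0 from 6994190 to 7025308. *Sparc*, on chromosome 10 from 40742400 to 40764185, ranked at place 29 with 1573 CPM. It encodes osteonectin, a collagen-binding glycoprotein that regulates how cells assemble their matrix. Fibronectin, the integrin-binding glycoprotein encoded by *Fn1*, had an average log2 CPM of 6.34. At the other end stood *Gldn*, the gene of gliomedin, which Schwann cells use to organise nodes of Ranvier in peripheral nerve. Its average log2 CPM was 2.14, above 7.73% of rows.

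**Figure D2:**
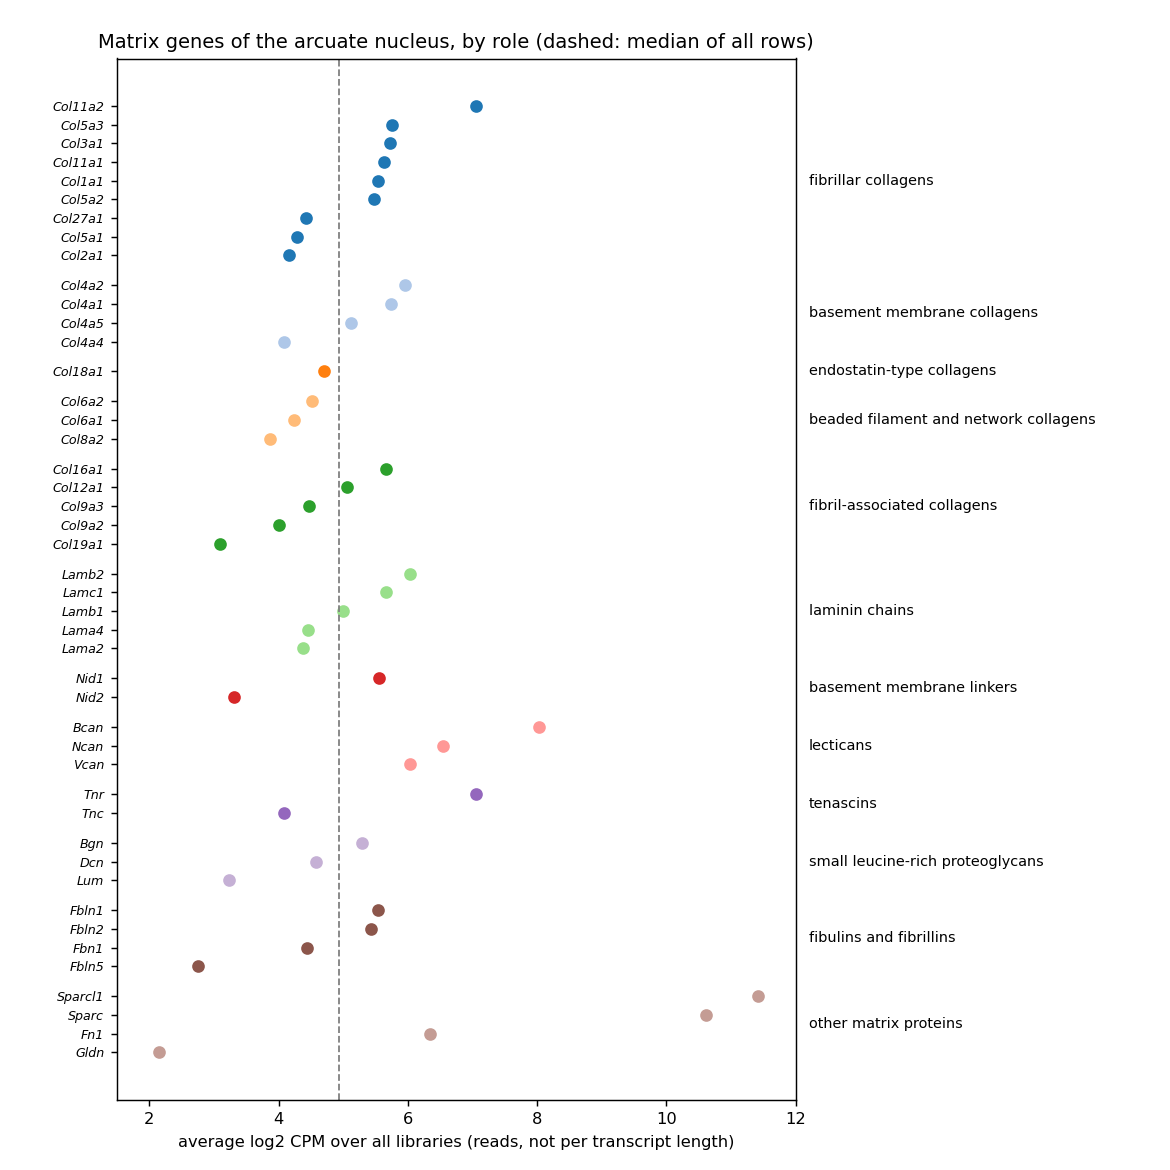
Each point is the average log2 CPM over all libraries of a matrix gene, grouped and coloured by role, and the dashed line is the median of all rows at 4.94. All 3 lecticans lie to the right of the line, and the 3 beaded filament and network collagens and *Col18a1* lie to its left.

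Type IV collagen is the network-forming collagen of basement membranes. Its chains *Col4a1* and *Col4a2*, which assemble together in basement membranes throughout the body, had average log2 CPM of 5.74 and 5.95. *Col4a5* followed at 5.12 and *Col4a4*, best known from the glomerular membrane of the kidney, at 4.08. The 4 genes summed to 167.0 CPM. The first pair lies head to head, and in the RefSeq annotation of GRCr8 the starts of *Col4a2* and *Col4a1* are 77 bases apart. The stretch between the starts is shown because both genes are transcribed away from it. How far the promoter of either gene reaches was not tested. It covers chr16:84885521-84885596 of GRCr8, read 5′ to 3′ on the plus strand, along which *Col4a1* is transcribed to the right and *Col4a2* runs to the left on the minus strand.

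Col4a2 and Col4a1: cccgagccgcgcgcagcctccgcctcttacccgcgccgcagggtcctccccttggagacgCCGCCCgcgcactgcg

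These 76 bases were 78.9% G and C. Capitals mark the match to the GC box, GGGCGG, which lies on the minus strand and so reads CCGCCC here, from base 61 of the stretch. None of the other motifs searched, which are described with the promoters of the whole family, had a match between the starts. The CCAAT box was, however, found beyond this stretch in the 250 bases before the start of each gene. *Col18a1*, whose collagen of the basement membrane zone releases endostatin, had an average log2 CPM of 4.70.

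Laminins are trimers of an alpha, a beta and a gamma chain, and they start the assembly of a basement membrane. Chains of every kind were present, and 3 of the 5 genes lay above the median of all rows. *Lamb2* had an average log2 CPM of 6.04 and *Lamb1*, the other beta chain, 5.00, which is under the median of 5.02 of the protein-coding rows alone and leaves 2 of the 5 above it. *Lamc1*, the gamma chain of most laminins, stood at 5.66. The alpha chains were *Lama4*, a chain of endothelial laminins, at 4.46 and *Lama2*, a chain of the membrane beneath astrocyte endfeet, at 4.38. The end of *Lama4* overlaps *Fam229b* on chromosome 20, and although the libraries were strand-specific, the strand setting of the counting is not given in the sources used here, so reads in the overlap could come from either gene. *Nid1*, which links laminin to type IV collagen, had an average log2 CPM of 5.55 and its paralog *Nid2* 3.32.

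Fibrillar collagens form the tension-bearing fibrils of connective tissue. Of the 9 genes, 6 lay above the median of all rows, and they summed to 439 CPM. *Col11a2*, a chain of the type XI collagen that nucleates cartilage fibrils, had an average log2 CPM of 7.05. *Col5a3*, a chain of the type V collagen that limits fibril diameter, stood at 5.76. *Col3a1*, the collagen of vessel walls and other elastic tissues, stood at 5.73. The lowest of the 9 was *Col2a1*, the main collagen of cartilage, at 4.16.

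Other collagens sit on fibrils or form filaments and lattices of their own. Among the 5 fibril-associated collagens, *Col16a1* at 5.67 and *Col12a1* at 5.06 on the log2 CPM scale lay above the median of all rows. *Col9a3*, a chain of the type IX collagen that coats cartilage fibrils, stood at 4.48. *Col19a1*, which subsets of neurons are known to make, was the lowest collagen at 3.09, above 17.0% of rows. The beaded filament chains *Col6a2* and *Col6a1* stood at 4.52 and 4.24. *Col8a2*, a chain of the lattice under the corneal endothelium, stood at 3.87. None of these last 3 reached the median of all rows.

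Of the 3 lecticans and 2 tenascins, all but *Tnc* lay above the median of all rows. *Bcan*, the gene of brevican, a lectican of the adult brain made largely by glia, had an average log2 CPM of 8.03, above 95.5% of rows. It lies on chromosome 2 from 187359677 to 187372657. Neurocan, encoded by *Ncan* and made by neurons and astrocytes, stood at 6.54. Versican, encoded by *Vcan* and found around nodes of Ranvier among other sites, stood at 6.03. Tenascin-R, which oligodendrocytes and some neurons secrete and which crosslinks the lecticans, had an average log2 CPM of 7.05 for *Tnr*. *Tnc*, the tenascin of developing and injured tissue, stood at 4.09. The span of *Tnr* overlaps the long non-coding RNA gene AABR07021536.1, whose own average log2 CPM is 0.73.

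Small leucine-rich proteoglycans bind collagen fibrils and set their spacing. *Bgn* (biglycan) had an average log2 CPM of 5.29, *Dcn* (decorin) 4.58 and *Lum* (lumican) 3.23. Only biglycan lay above the median of all rows among these 3. Fibulins and fibrillins build elastic fibres and microfibrils. *Fbln1* stood at 5.54, *Fbln2* at 5.43 and *Fbn1*, the backbone of microfibrils, at 4.44. *Fbln5*, which helps to assemble elastic fibres, was the lowest of its group at 2.75, above 13.0% of rows.

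Genes that make, bind or cut these proteins were read from 4 further lists. Collagen chains are hydroxylated, folded and crosslinked by dedicated enzymes, and 17 genes of this kind were found, of which 7 lay above the median of all rows. *P4hb*, the disulfide isomerase that is also a subunit of the collagen prolyl hydroxylase, had an average log2 CPM of 7.37. The collagen chaperone *Serpinh1* and the prolyl isomerase *Ppib* both stood at 6.32. The list median was 4.82, and its lowest value was 2.62.

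Receptors for the matrix had a list median of 5.91, with 8 of 13 genes above the median of all rows. *Dag1*, the gene of dystroglycan, which holds laminin at the cell surface, had an average log2 CPM of 7.23. *Itgb1*, the beta subunit shared by most laminin and collagen integrins, stood at 7.21. *Ddr1*, a collagen-activated receptor kinase known from oligodendrocytes, stood at 7.18.

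Partners of the hyaluronan matrix had a list median of 6.58 over 4 genes, 3 of them above the median of all rows. *Ptprz1*, a receptor phosphatase whose secreted form, phosphacan, binds tenascin-R, had an average log2 CPM of 8.85. The link proteins *Hapln4* and *Hapln2* stood at 6.61 and 6.56. *Hapln1*, named here after its values were seen, stood at 4.63. Among 12 genes of proteases and their inhibitors, 6 lay above the median of all rows, and the list median was 4.94. The inhibitors *Timp2* and *Timp3* stood at 8.54 and 6.84, and *Adamts4*, a protease that cleaves lecticans, at 5.84.

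Marker genes of the cells that the tissue block could hold were read in the same way. All 5 neuronal markers lay above the median of all rows, with a list median of 8.80 and *Snap25* highest at 10.44. Of the arcuate neuron list, 6 genes were found, with a median of 2.88. *Cartpt* had an average log2 CPM of 6.02, *Pomc* 4.67 and *Tac3* 4.34, but *Agrp* had 1.42, *Ghrh* 1.02 and *Kiss1* 0.08, which is above 1.06% of rows. *Npy* was not analysed here. Of the 6 genes, 1 lay above the median of all rows, and *Pomc* is also in the pituitary list. Markers of the ARC were thus present, but 3 of those found lay among the lowest rows. The matrix levels are those of the whole dissected block, and the part of these neurons in them was not tested.

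All 8 astrocyte markers lay above the median of all rows (7 above that of the protein-coding rows), with a median of 9.38, and the highest of them was the matrix gene *Sparcl1* itself. All 9 genes of the oligodendrocyte lineage did so too, with a median of 7.26, *Mbp* highest at 12.59, and the matrix genes *Bcan* and *Tnr* among them. Microglial markers had a median of 4.32 over 6 genes, with *Csf1r* highest at 6.82 and 2 above the median of all rows.

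Cells of vessels and meninges are the usual sources of basement membrane and fibrillar collagen. The 8 endothelial markers found had a median of 5.31, with *Flt1* highest at 6.28 and 4 above the median of all rows, and summed to 362 CPM. The 10 markers of pericytes and smooth muscle had a median of 4.67, with *Rgs5* highest at 5.35 and 3 above the median of all rows, 1 of them *Cspg4*, which is shared with the oligodendrocyte lineage. They summed to 259 CPM. The 9 fibroblast markers had a median of 3.67 and summed to 271 CPM. The 2 of them above the median of all rows were *Pdgfra* at 7.01, which is likewise in the oligodendrocyte list, and *Col1a1* at 5.54, which is a matrix gene itself, as are *Dcn* and *Lum*. These shared genes carry most of the 271 CPM, with 129 from *Pdgfra*, 46.6 from *Col1a1*, 23.8 from *Dcn* and 9.39 from *Lum*. *Cspg4* gave 34.0 of the 259 CPM of pericytes and smooth muscle. The fibroblast factor *Foxc1* stood at 3.56. The part of each cell type in the matrix levels was not tested.

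The 5 choroid plexus markers found had a median of 2.21 and none lay above the median of all rows, with *Ttr* highest at 3.06. Of the pituitary list, which also holds the arcuate gene *Pomc*, 3 genes were found with a median of 4.67, and *Cga* stood at 4.95 and *Tshb* at 3.37. Tanycyte and ependymal genes had a median of 3.65 over 5 genes, with 2 above the median of all rows. These were *Vim* at 7.32 and *Crym* at 5.53, while *Rax*, a tanycyte factor, was lowest at 0.08.

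**Figure D3:**
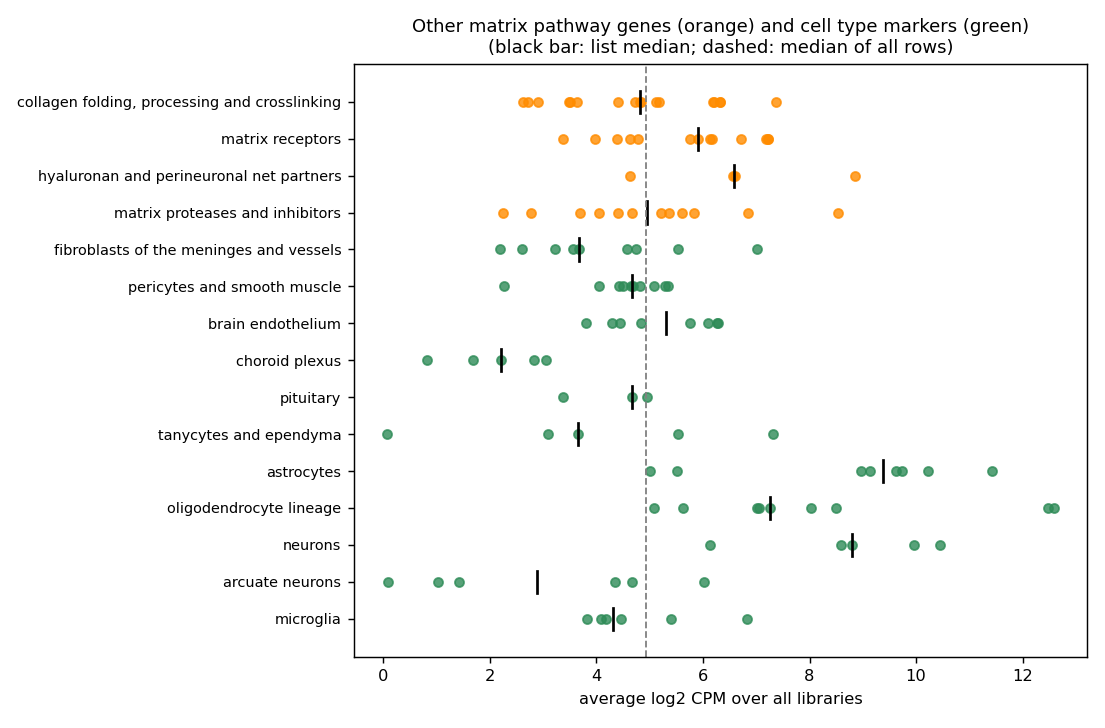
Each point is the average log2 CPM over all libraries of a gene, by list, with other genes of the matrix pathway in orange and cell type markers in green. Black bars are list medians and the dashed line is the median of all rows at 4.94, with astrocytes highest at 9.38 and the choroid plexus lowest at 2.21.

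The matrix genes were spread over 17 chromosomes, with 5 each on chromosomes 5, 9 and 20 and 2 on the X. Their spans on Rnor_6.0 ran from 7092 bp for *Lum* to 651886 bp for *Lama2*. Within 100 kb and with no other gene of the table between them lay 4 pairs of matrix genes. *Col3a1* and *Col5a2*, both of fibrillar collagens, were 33.3 kb apart on chromosome 9, with average log2 CPM of 5.73 and 5.47. The chains *Col6a1* and *Col6a2* of beaded filaments were 97.9 kb apart on chromosome 20. *Dcn* and *Lum* were 37.4 kb apart on chromosome 7. In the deposited coordinates *Col4a1* and *Col4a2* were 83.6 kb apart on chromosome 16, far more than in the later RefSeq annotation. Whether this difference between the annotations touches the level of either gene was not tested.

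Each of the 3 lecticans lay next to the gene of a hyaluronan link protein. *Ncan* and *Hapln4* were 4.67 kb apart, and their average log2 CPM was 6.54 and 6.61. *Bcan* and *Hapln2* were 23.7 kb apart, with 8.03 and 6.56. *Vcan* and *Hapln1* were 71.0 kb apart, with 6.03 and 4.63. The neighbouring pairs were chosen by distance, after their values were seen.

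**Figure D4:**
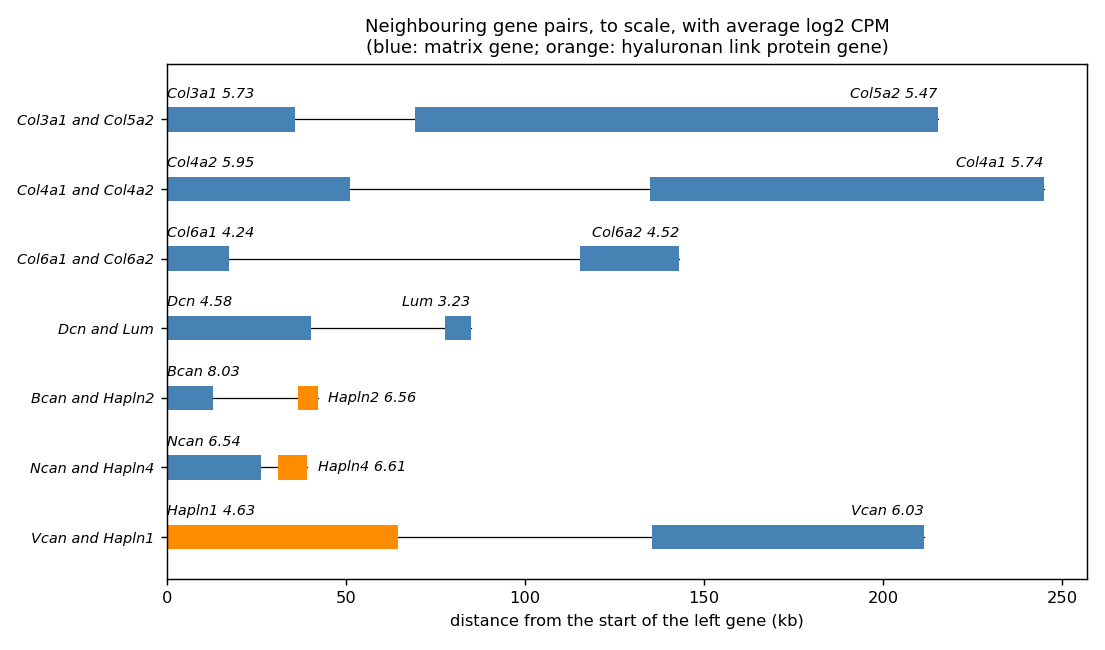
Boxes show genes to scale along the chromosome, in kb from the start of the left gene of each pair in the deposited coordinates, with the average log2 CPM over all libraries beside each name. Blue boxes are matrix genes and orange boxes are link protein genes, and the gaps run from 4.67 kb for *Ncan* and *Hapln4* to 97.9 kb for *Col6a1* and *Col6a2*.

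Promoter sequence from RefSeq, on GRCr8, was matched by symbol to 33 of the 45 genes, with 34 windows since *Vcan* has 2. Each window was read over the 250 bases before the start, on both strands. The GC box, GGGCGG, was found in 22 windows (64.7%), against 30.5% of all 33469 windows and 57.8% of the 10623 windows whose genes are in the table. The CCAAT box, CCAAT, was in 9 windows (26.5%), against 34.0% and 34.6%. The TATA box, TATAAA, was in 3 windows (8.82%), those of *Lama4*, *Ncan* and *Tnc*, against 12.9% and 6.38%. With 34 windows, a single window more or less moves each share by 2.94 points.

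The other three motifs were rare. The AP-1 motif, TGACTCA, was in the window of *Col6a1* alone (2.94%), against 4.05% of all windows and 2.82% of those of the table's genes. The E-box, CACGTG, was in no matrix window, against 5.59% of all windows and 8.01% of those of the table's genes. The STAT motif, TTCNNNGAA, was in none either, against 7.67% and 5.68%. The median share of G and C was 61.0% in the matrix windows, 51.2% in all windows and 60.4% in those of the table's genes. It ran from 36.8% for *Tnr* to 75.2% for *Col4a1*. A second head-to-head pair within 500 bases joined *Col4a4* to *Col4a3*, with starts 413 bases apart.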

How the data were processed

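Poly-A RNA of the ARC from 10 dams, 5 per diet, was sequenced. The authors trimmed reads with Trim Galore 0.5.0, aligned them to Rnor_6.0 with STAR 2.6.0c and counted Ensembl genes with HTSeq 0.6.1p2. The level used is a log2 value that the authors deposited in a table of 12828 genes. Its header, logCPM, names no sample, and it was read as an average over all libraries. The tool behind this column is not given in the sources used here. The table also holds the authors' comparison of the diets (log2 fold change, F statistic, p-value and FDR), which was not used. A further 10 per-sample columns match no sample label and were used in no step. The planned fits of the diets were therefore not run, and the read total of each library was not obtained. The spread between dams was not computed either, although a spread over all 10 columns would need no labels.

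Percentiles are the share of rows with a lower value, and genes without a row do not enter them. CPM was taken back from the log2 scale and summed over lists. Genes were grouped by 13 lists of roles, and 4 lists of other pathway genes and 11 of cell type markers were read beside them. Named were the 3 highest and the lowest genes of each role, all of roles with 3 genes or fewer, and the 3 highest of each pathway list; any further gene was picked with its value in view. The members and lists were chosen with earlier results of these data known. Promoters came from RefSeq (GRCr8), with 6 motifs searched. Calculations ran in Python 3.11.15 (pandas 2.3.3, numpy 2.4.6, scipy 1.17.1), figures were drawn with matplotlib 3.10.9, and the percentile and the gene rule were tested on cases with known answers.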

Additional observations from a re-analysis of the deposited data

How the results depend on the processing

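The median matrix gene lay above 53.6% of all rows, above 52.4% of the 12383 protein-coding rows and above 52.3% of the 12462 rows whose average log2 CPM reaches 1. The change is that of the rows compared, since the level itself stays as deposited. Among protein-coding rows 43 of the 45 genes had a lower percentile, and among rows that reach 1 all 45 did, by 2.71 points at most. In both cases *Lamb1* no longer lay above the median, so that 24 in place of 25 matrix genes, and 2 in place of 3 laminin chains, did. Of the marker genes, *Sox9* and *Cga* likewise fell under the median of either set of rows, and no other gene of the lists crossed it. No paired analysis was possible because the level used pools the libraries and the per-sample columns carry no sample label. For the same reason the comparison of the diets was not run under any of its intended settings, namely other pseudocounts, no filter on low values, leaving out each dam, the replicate number as a block, the other tests and median-ratio scaling. A level per transcript length was not run either. The name of the table includes FPKM, a level divided by transcript length, so its per-sample columns may hold one, but they were not used. No transcript lengths were at hand to compute it otherwise. As the read total of each library was not obtained, the counts behind the lowest values are not given.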
